A study of Danio rerio with 20 samples.

Results

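Transcript levels in whole zebrafish embryos were compared between 16 and 14 hours post fertilization (hpf), an interval in the middle of segmentation. The comparison used 8 of the 20 libraries of the series, namely every library collected at these stages, 4 at 16 hpf and 4 at 14 hpf. Embryos of 2 kinds of cross were sampled at both stages. MPNP libraries held un-genotyped progeny of parents that carried 1 mutant copy of mdm2 and had no intact copy of puma, noxa or p21, so that by Mendelian expectation about 25% of the embryos lacked mdm2. PNP libraries held progeny of parents homozygous for the puma, noxa and p21 mutations, with no mdm2 mutation given. The 4 groups were MPNP at 16 hpf, PNP at 16 hpf, MPNP at 14 hpf and PNP at 14 hpf, with 2 libraries each, and every embryo in them lacked puma, noxa and p21. No library of an unmutated strain is among the 20. A library was made from poly(A) RNA of about 50 pooled embryos fertilized within 15 min of each other, so a value is an average over embryos and over all their cells. The remaining 12 libraries covered 8, 10 and 12 hpf. They are used below for the earlier course of the genes and the comparison with the change from 10 to 12 hpf. They also enter the alternative fit on all 20 libraries and the description of the replicate numbers.

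At these stages the zebrafish embryo adds somites one pair at a time at its tail end, under the control of a segmentation clock of oscillating Notch and Hairy-related genes and of Wnt and Fgf signals from the tailbud. Cells that leave the tailbud differentiate in the older somites into slow and fast muscle, while the notochord builds its sheath, the optic vesicles form, the first neurons appear, neural crest cells leave the neural tube and blood and vessel precursors arise in the lateral mesoderm. Transcripts of gastrula patterning genes decline over the same hours.

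Values are in TPM, a relative abundance in which the transcripts of each gene are scaled by its length and each library to the same total. Changes are given as 16 minus 14 hpf on the log2(TPM + 1) scale, which understates the change of genes at low levels, with the standard error (SE). A gene was called when its adjusted p in limma, a linear model with a variance shared across genes, was below 0.05 after Benjamini-Hochberg adjustment over all 15022 genes tested, with cross and replicate number as covariates. Library values are listed in the order MPNP 1, MPNP 2, PNP 1 and PNP 2. Where the call of a named gene or the count of a list depended on the replicate number covariate, the value of the fit without it, called here the fit without the replicate block, is given as well.

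The libraries numbered 2 stood apart from those numbered 1 at each stage. At 16 hpf 15326 and 15200 genes reached 1 TPM in the libraries numbered 2, against 15011 and 14938 in those numbered 1, and at 14 hpf 14922 and 14839, against 14376 and 14343. The 13 mitochondrially encoded genes took 2.03% and 1.71% of the TPM in the libraries numbered 2 at 16 hpf, against 1.19% and 1.28% in those numbered 1, and at 14 hpf 1.77% and 1.69%, against 1.45% and 1.15%. A gene without a symbol, ENSDARG00000080337, was between 13636 and 25150 TPM in the libraries numbered 2 of these stages and between 101 and 333 TPM in those numbered 1. TPM keeps no read depth, so the number of reads behind a value is not known. Libraries with the same number deviated from their group means in the same direction, with correlations across genes between 0.494 and 0.603 in the 6 pairs of groups.

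Some genes of differentiated fast muscle and of the lens, picked after their values were seen, followed the replicate number more than the stage. pvalb2, a parvalbumin gene of fast muscle, was at 26.3 and 39.0 TPM in the libraries numbered 2 of 16 hpf and at 135 and 57.0 TPM in those of 14 hpf, against 0.790 and 0.460 TPM in the libraries numbered 1 of 16 hpf and 0.360 and 0.290 TPM in those of 14 hpf. It was also between 23.2 and 70.2 TPM in the libraries numbered 2 of 8, 10 and 12 hpf and below 1 TPM in those numbered 1. ckma, a muscle creatine kinase gene, was at 4.45 and 4.65 TPM in the libraries numbered 2 of 16 hpf and at 17.9 and 7.39 TPM in those of 14 hpf, and below 2 TPM in all libraries numbered 1. Of the 15022 genes tested, 51 were at least 1 higher on the log2 scale in both libraries numbered 2 than in both numbered 1 at 16 hpf and 104 at 14 hpf, and 25 at 16 hpf and 30 at 14 hpf were lower by as much. With the libraries numbered 1 only, 349 of the 364 rises of at least 1 given below and 104 of the 107 such falls were called in the same direction, and 332 and 100 with those numbered 2 only. These genes were chosen in a fit that holds the same libraries, so the counts are a description and no further support. Of all 2999 rises, 1585 were called with the libraries numbered 1 only and 1001 with those numbered 2 only. Of all 2799 falls, 978 and 813 were. The part of the differences between replicate numbers in other results was not tested.

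The genes mutated in these fish were transcribed in every library. mdm2 (ENSDARG00000033443), whose product degrades p53, was at 317, 325, 113 and 114 TPM at 16 hpf, against 187, 286, 86.2 and 85.8 TPM at 14 hpf. The MPNP libraries lay above the PNP libraries at both stages. Its change was 0.43 ± 0.10 (SE, limma adjusted p = 0.0084), which did not pass without the replicate block (adjusted p = 0.053). bbc3, the gene of Puma, was at 7.63, 8.81, 1.49 and 1.32 TPM at 16 hpf, against 8.57, 16.2, 1.78 and 1.93 TPM at 14 hpf, and its stage change of -0.36 ± 0.15 did not pass (limma adjusted p = 0.09). It passed as a fall after quantile normalization (adjusted p = 0.031 in limma) and without the first PNP library of 16 hpf (adjusted p = 0.048). cdkn1a, the gene of p21, changed by 0.27 ± 0.10 and pmaip1, the gene of Noxa, by 0.02 ± 0.11, and neither passed (limma adjusted p = 0.066 and 0.89). cdkn1a passed as a rise without the second MPNP library of 14 hpf (limma adjusted p = 0.041). A mutant transcript can still be counted, so these levels do not check the mutations. The order of the stages was seen in pou5f3, a pluripotency factor of the early embryo, which averaged 902, 301, 55.2, 10.5 and 4.08 TPM at 8, 10, 12, 14 and 16 hpf.

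Within these 2 hours 2999 genes rose (20.0% of those tested) and 2799 fell (18.6%). The list counts of this fit stand beside these shares. List counts from other fits stand beside the totals of those fits. Without the replicate block these were 1474 rises and 782 falls among the same 15022 genes. With the libraries numbered 1 only they were 1749 and 1047 of 14766 genes, and with those numbered 2 only 1039 and 902 of 15238. Which direction had more genes depended on the setting, with 2585 rises and 3454 falls after median-ratio scaling. Most changes were small, with a median size of 0.38 among the called genes, and the median change of all genes tested was 0.0013. By at least 1 on the log2 scale, 364 genes rose (2.42%) and 107 fell (0.712%). By at least 2, 30 rose and 2 fell. All 5798 called genes had the same sign in both crosses and in both replicate numbers, and 5607 had it in each of the 4 pairs of libraries. These signs come from the libraries that gave the calls, so they too are a description and no further support. In the fit without the replicate block 1474 genes rose and 782 fell, all 2256 of them among the calls above. The larger changes depended on it little, with 352 of the 364 and 104 of the 107 called in both fits. The 4 libraries of 16 hpf lay all above or all below the 4 of 14 hpf in 332 of the 364 and 101 of the 107, beside 11.9% and 8.87% of all genes tested. The 364 and the 107 were chosen by their change in these same libraries, so this is a description and no further support.

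**Figure D1:**
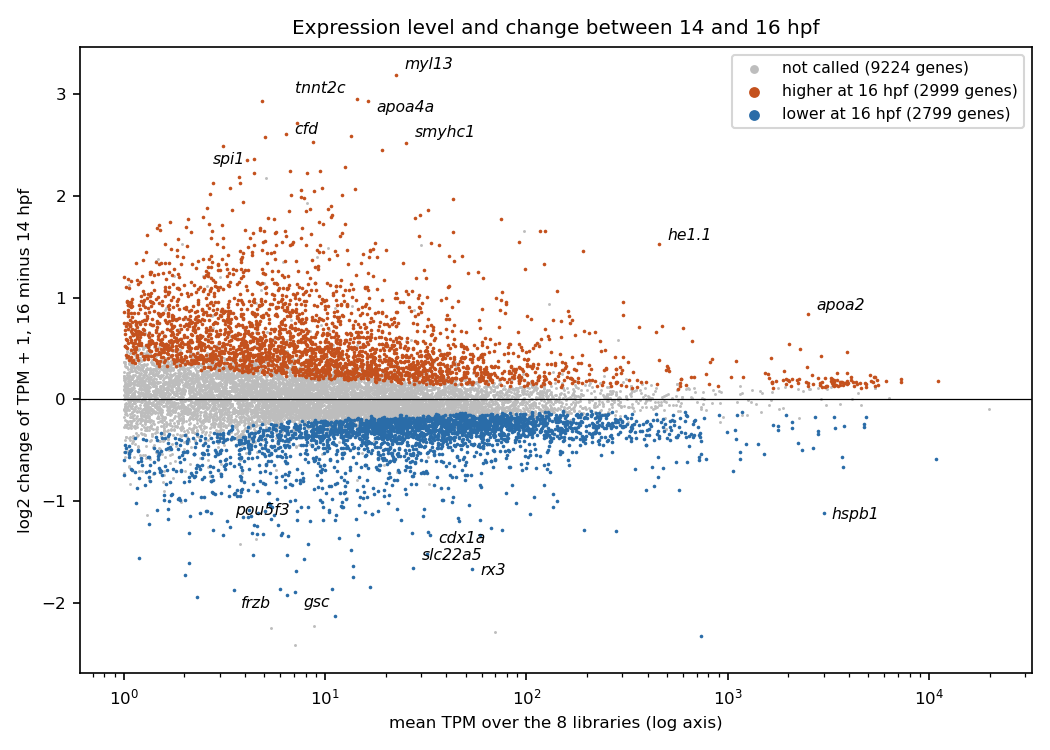
Each point is 1 of the 15022 genes tested, with the mean TPM over the 8 libraries on a log axis and the log2 change, 16 minus 14 hpf, on the other axis. The 2999 genes called higher are orange, the 2799 called lower are blue and genes not called are grey. Rises above 2 are more frequent than falls below -2, and named genes run from myl13 at 3.18 to frzb at -1.92.

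Muscle genes were among the largest rises. In whole embryos, a change in the number of cells of a type and a change in RNA per cell cannot be told apart. This holds for every list below. myl13 (ENSDARG00000042245), a myosin light chain gene, was at 32.2, 46.2, 45.5 and 41.2 TPM at 16 hpf, against 1.54, 6.11, 3.66 and 4.39 TPM at 14 hpf. All 4 libraries of 16 hpf lay above 32 TPM and none of 14 hpf above 6.11 TPM. Its change of 3.18 ± 0.22 was the largest among the genes named here (limma adjusted p = 3.1e-05). tnnt2c (ENSDARG00000032242), a troponin T gene, was at 21.8, 31.2, 26.1 and 26.1 TPM at 16 hpf, against 1.75, 3.07, 2.55 and 2.82 TPM at 14 hpf, a rise of 2.95 ± 0.11 (SE, limma adjusted p = 4.5e-06). Of the 36 measured fast muscle and contractile genes 24 rose and 1 fell, with a median change of 0.79 against 0.0013 over all genes (19 and 0 without the replicate block). The median was 0.39 over members with a mean of at least 5 TPM. With the libraries numbered 1 only 23 rose and 0 fell, and with those numbered 2 only 15 rose and 7 fell, namely ckma, ckmb, myl1, pvalb1, pvalb2, pvalb4 and tnnt3. Of these, ckma, ckmb, pvalb1, pvalb2 and pvalb4 were below the filter in the libraries numbered 1 and not tested there. myl1 and tnnt3 were tested there and not called, so the counts of falls cover different sets of genes. The gene that fell in the fit of all 8 libraries was a myosin light chain gene under the symbol myl1 (ENSDARG00000017441), at 2.46, 5.45, 2.53 and 11.7 TPM at 16 hpf, against 4.28, 27.4, 2.99 and 17.1 TPM at 14 hpf, so that its libraries numbered 2 were the higher ones at both stages. The skeletal alpha actin symbol acta1 stood for a gene at 32.8 ± 5.81 TPM at 16 hpf and 5.43 ± 2.07 TPM at 14 hpf (ENSDARG00000055618) and for a second at 175 ± 24.2 TPM at 16 hpf and 70.0 ± 17.8 TPM at 14 hpf (ENSDARG00000036371), here as mean ± SD of 4 libraries. Both rose, by 2.45 and 1.33 on the log2 scale, and their libraries did not overlap between stages. Paralogs of this kind can share reads, so the split between them is uncertain.

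Genes of acetylcholine receptor subunits, which form the receptor at the junction of nerve and muscle, rose in the same interval. chrna1, the alpha subunit gene, was at 4.45, 5.16, 5.13 and 4.83 TPM at 16 hpf, against 0.930, 2.31, 1.74 and 1.40 TPM at 14 hpf (limma adjusted p = 0.00068). chrng, the gamma subunit gene, was at 2.55, 4.00, 3.43 and 3.15 TPM at 16 hpf, against 0.240, 0.430, 0.460 and 0.600 TPM at 14 hpf. chrnd, the delta subunit gene, was at 2.65, 3.30, 3.58 and 3.58 TPM at 16 hpf, against 0.380, 0.410, 0.940 and 0.830 TPM at 14 hpf. chrng and chrnd were below 1 TPM in every library of 14 hpf and above 2.5 TPM in every library of 16 hpf, with changes of 1.57 ± 0.13 and 1.39 ± 0.12 (SE, limma adjusted p = 7.9e-05 and 8.1e-05). srl (ENSDARG00000104587), the gene of the calcium-binding protein sarcalumenin of the sarcoplasmic reticulum, averaged 2.56 ± 0.420 TPM at 16 hpf and 0.415 ± 0.168 TPM at 14 hpf.

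Slow muscle arises next to the notochord and uses its own myosin heavy chains. smyhc1 (ENSDARG00000099959), the main slow myosin heavy chain gene of the embryo, was at 39.2, 47.2, 47.0 and 41.6 TPM at 16 hpf, against 4.71, 6.87, 7.29 and 8.91 TPM at 14 hpf. Its values at 16 hpf were all above 39 TPM and those at 14 hpf all below 9 TPM, a rise of 2.52 ± 0.12 (SE, limma adjusted p = 1.0e-05). smyhc2 was at 2.62, 3.61, 2.83 and 2.98 TPM at 16 hpf, against 0.240, 0.500, 0.440 and 0.590 TPM at 14 hpf, and myl10, a light chain gene of the slow list, averaged 140.1 ± 20.0 TPM at 16 hpf and 56.8 ± 6.99 TPM at 14 hpf. Of the 7 measured slow muscle genes 5 rose and 1 fell (4 and 1 without the replicate block). The count that rose was 3 without the second MPNP library of 16 hpf and also 3 without the first PNP library of 16 hpf. The gene that fell was prdm1, a repressor that sets slow fate earlier, at 30.9 and 37.6 TPM on average at 16 and 14 hpf. en1b, an engrailed gene of the muscle pioneer cells, averaged 1.75 ± 0.549 TPM at 16 hpf and 0.403 ± 0.179 TPM at 14 hpf and rose by 0.96 (limma adjusted p = 0.0038). prox1, a homeobox gene of slow fibres, rose by 0.46, but did not pass without the replicate block (limma adjusted p = 0.069) or without any one of 6 libraries (adjusted p between 0.084 and 0.11).

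Among 22 measured myogenic factors 12 rose and 2 fell, with a median of 0.35 (9 and 2 without the replicate block), which was 0.19 over members with a mean of at least 5 TPM. myog (ENSDARG00000009438), the bHLH factor of differentiating myocytes, was at 12.7, 13.1, 16.9 and 11.7 TPM at 16 hpf, against 3.84, 1.50, 4.75 and 2.49 TPM at 14 hpf, a rise of 1.87 ± 0.15 (SE, limma adjusted p = 6.6e-05). myod1, which acts before it, was at 18.3, 10.6, 22.2 and 9.31 TPM at 16 hpf, against 10.6, 5.33, 13.4 and 5.50 TPM at 14 hpf. The libraries numbered 1 lay above those numbered 2 at each stage, and the rise of 0.74 ± 0.09 (limma adjusted p = 0.00052) did not pass without the replicate block (adjusted p = 0.21). The kelch-repeat genes klhl31 and klhl40 (ENSDARG00000039052), which act in muscle fibres, rose by 1.27 and 1.06, and mef2c (ENSDARG00000009418), a partner of the bHLH factors, by 1.64. For a second gene under the symbol mef2c (ENSDARG00000029764), the rise of 0.60 did not pass in the fit on all 20 libraries (limma adjusted p = 0.2). six4b, a homeobox gene of the early myogenic cells, fell to 23.2 ± 1.77 TPM at 16 hpf, against 33.0 ± 3.27 TPM at 14 hpf (change -0.49 ± 0.06, limma adjusted p = 0.00037).

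Genes of the tailbud and the segmentation clock moved the other way. Of 46 measured members 24 fell and 4 rose, with a median of -0.27 (16 and 1 without the replicate block). cdx1a (ENSDARG00000114554), a caudal homeobox gene of the posterior body, was at 20.5, 18.4, 17.5 and 17.1 TPM at 16 hpf, against 51.6, 47.5, 50.5 and 41.7 TPM at 14 hpf. The stages did not overlap, and the change was -1.33 ± 0.06 (SE, limma adjusted p = 7.5e-06). wnt8a (ENSDARG00000078507), a Wnt ligand of the tailbud, was at 8.12, 5.50, 6.03 and 6.40 TPM at 16 hpf, against 17.8, 16.8, 16.5 and 12.8 TPM at 14 hpf, a change of -1.18 ± 0.10 (SE, limma adjusted p = 8.4e-05). msgn1, which drives progenitors into presomitic mesoderm, averaged 120.2 ± 13.4 TPM at 16 hpf and 175 ± 16.7 TPM at 14 hpf. sp5l, a Wnt target, averaged 36.9 ± 3.30 TPM at 16 hpf and 62.3 ± 2.49 TPM at 14 hpf and wnt5b, a Wnt ligand of posterior extension, 49.2 ± 2.12 TPM at 16 hpf and 74.9 ± 4.06 TPM at 14 hpf. efnb2 (ENSDARG00000074050), an ephrin of somite borders, averaged 37.7 ± 3.53 TPM at 16 hpf and 63.7 ± 4.69 TPM at 14 hpf. These 4 genes fell by between 0.54 and 0.74 on the log2 scale, with limma adjusted p from 2.3e-05 to 8.3e-05. The count that rose was 7 without the second PNP library of 16 hpf.

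The Hox genes, which give segments their position along the body, are numbered by paralog group from head to tail. Of 16 measured genes of groups 9 to 13, the posterior groups, 8 rose and 1 fell (7 and 0 without the replicate block), and 5 rose by at least 1. hoxd12 (ENSDARG00000059263) was at 9.72, 15.6, 11.0 and 12.4 TPM at 16 hpf, against 2.34, 3.27, 3.34 and 3.40 TPM at 14 hpf, a rise of 1.68 ± 0.12 (SE, limma adjusted p = 3.4e-05). Both genes under the symbol hoxa11 rose, with means of 10.8 and 3.11 TPM at 16 and 14 hpf for ENSDARG00000007009 and 4.66 and 1.23 TPM for ENSDARG00000104162. hoxc11 averaged 5.25 ± 1.12 TPM at 16 hpf and 1.36 ± 0.517 TPM at 14 hpf and hoxd11 7.92 ± 1.67 TPM at 16 hpf and 3.76 ± 0.925 TPM at 14 hpf. hoxc10 rose by 0.62, but did not pass without the replicate block (limma adjusted p = 0.076). Of 25 genes of groups 1 to 8 10 rose and 3 fell, with a largest rise of 0.91 in hoxb5 (ENSDARG00000013057), at 8.74 ± 1.41 TPM at 16 hpf and 4.20 ± 0.945 TPM at 14 hpf. hoxa2b and hoxa3, of the hindbrain and pharyngeal arches, rose by 0.69 and 0.40, with limma adjusted p = 0.00045 and 0.0031. The rise of hoxa3 did not pass in the fit on all 20 libraries (limma adjusted p = 0.17). hoxb1b, a group 1 gene of the hindbrain and early posterior body, was among those that fell, with 71.1 ± 9.89 TPM at 16 hpf and 99.5 ± 9.29 TPM at 14 hpf. Without the replicate block the group 1 to 8 counts were 4 and 2, and without the second MPNP library of 16 hpf 6 rose. The calls of hoxd3 and hoxc6 (ENSDARG00000101954) were lost without the replicate block (limma adjusted p = 0.067 and 0.12).

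In the notochord list, 15 of 30 measured members rose and 5 fell, with a median of 0.27 (13 and 3 without the replicate block). The rises of largest size were in collagens and sheath genes. The symbol col2a1, the type II collagen of notochord sheath and cartilage, stood for ENSDARG00000069093 at 67.8, 70.9, 71.0 and 66.0 TPM at 16 hpf, against 14.4, 17.7, 16.7 and 19.2 TPM at 14 hpf. The spread within a stage was small beside the difference, and the rise was 1.97 ± 0.07 (SE, limma adjusted p = 4.5e-06). A second col2a1 gene (ENSDARG00000011407) averaged 27.5 ± 3.49 TPM at 16 hpf and 11.7 ± 2.58 TPM at 14 hpf. cmn (ENSDARG00000055527), which encodes the notochord sheath protein calymmin, was at 7.14, 8.65, 8.20 and 5.92 TPM at 16 hpf, against 0.340, 0.910, 0.630 and 0.790 TPM at 14 hpf, below 1 TPM in each library of 14 hpf. col9a2, a type IX collagen gene, rose by 2.04, col8a1a, a short-chain collagen gene, by 1.54 and ccn2, a matricellular growth factor gene, by 1.47 (limma adjusted p from 1.6e-05 to 2.7e-05).

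Matrix genes rose beyond the notochord. Of 28 measured extracellular matrix genes 18 rose, 11 of them by at least 1, and 1 fell (16 and 0 without the replicate block). thbs4 (ENSDARG00000020072), a thrombospondin gene of muscle attachment sites, was at 13.3, 12.6, 22.7 and 16.2 TPM at 16 hpf, against 1.73, 1.77, 3.63 and 3.55 TPM at 14 hpf, a rise of 2.24 ± 0.10 (SE, limma adjusted p = 9.0e-06). col5a2 (ENSDARG00000031678), a fibrillar collagen gene, was at 21.2, 19.8, 28.3 and 23.6 TPM at 16 hpf, against 3.98, 3.71, 6.03 and 5.61 TPM at 14 hpf, a rise of 2.06 ± 0.07 (SE, limma adjusted p = 4.5e-06). postn (ENSDARG00000104267), the periostin gene, averaged 6.78 ± 1.30 TPM at 16 hpf and 1.07 ± 0.636 TPM at 14 hpf. tnc (ENSDARG00000021948), a tenascin gene, averaged 3.68 ± 0.427 TPM at 16 hpf and 0.912 ± 0.134 TPM at 14 hpf, and col11a1, a fibrillar collagen gene, 25.8 ± 1.63 TPM at 16 hpf and 8.67 ± 1.47 TPM at 14 hpf. sparc, a collagen-binding glycoprotein gene, averaged 81.7 ± 15.0 TPM at 16 hpf and 33.4 ± 4.90 TPM at 14 hpf and was the most abundant of these.

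**Figure D2:**
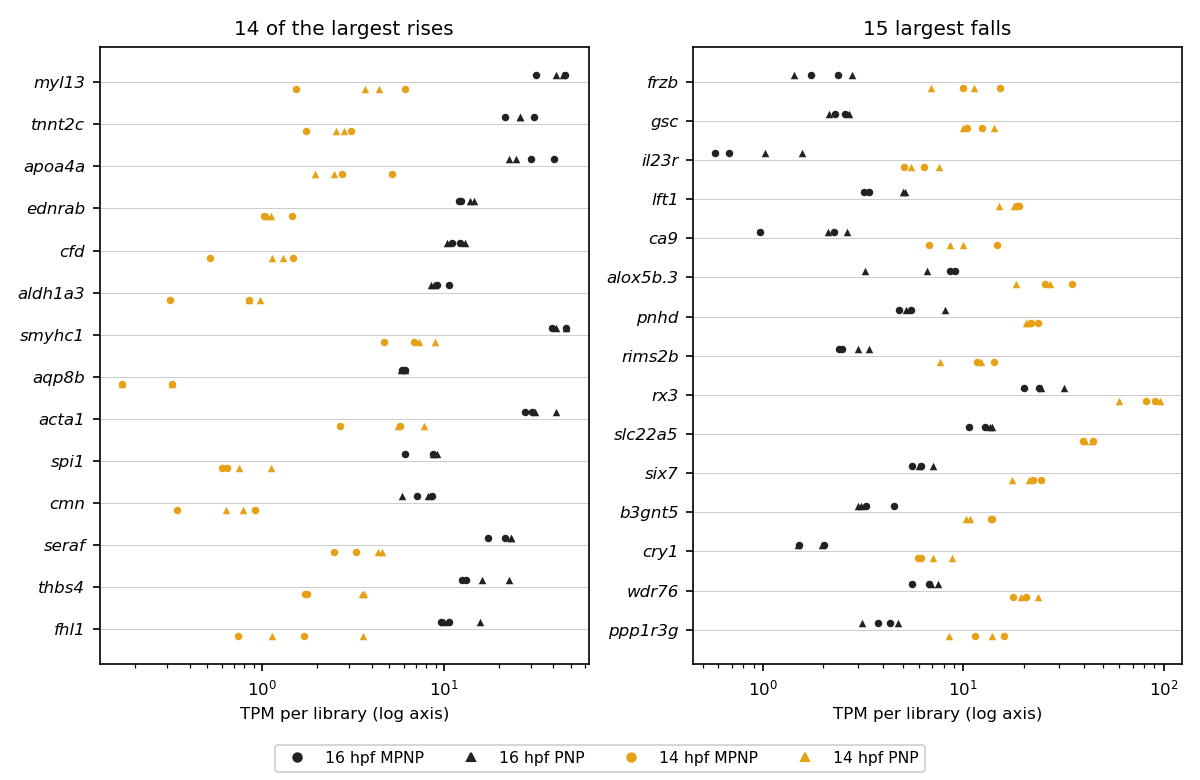
TPM in each of the 8 libraries on a log axis, for 14 of the largest rises (left) and the 15 largest falls (right) among called genes with a mean of at least 5 TPM at the higher stage, one sign in all 4 pairs of libraries and a symbol not taken from a clone. Black marks are 16 hpf and yellow marks 14 hpf, circles are MPNP and triangles PNP libraries. For none of these genes do the libraries of the 2 stages overlap.

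Neuronal genes rose while regional progenitor genes moved in both directions. Of 43 measured genes of neurogenesis and neurons 29 rose and 7 fell, with a median of 0.44 (19 and 5 without the replicate block). elavl3 (ENSDARG00000014420), an RNA-binding protein gene that marks newborn neurons, was at 37.0, 42.6, 41.9 and 38.6 TPM at 16 hpf, against 18.5, 22.8, 17.1 and 23.2 TPM at 14 hpf, a rise of 0.95 ± 0.08 (SE, limma adjusted p = 9.4e-05). dlb, a Delta ligand gene of neuronal precursors, averaged 17.5 ± 2.11 TPM at 16 hpf and 11.6 ± 1.47 TPM at 14 hpf and nhlh2, a bHLH gene of young neurons, 5.17 ± 0.868 TPM at 16 hpf and 2.44 ± 0.383 TPM at 14 hpf. rtn1a, a reticulon gene of neurons, averaged 65.1 ± 11.9 TPM at 16 hpf and 44.7 ± 9.01 TPM at 14 hpf and did not pass without the replicate block (limma adjusted p = 0.075). gata3, used in interneurons and in the epidermis, fell to 41.9 ± 6.19 TPM at 16 hpf, against 76.9 ± 9.97 TPM at 14 hpf, and mnx2b, a homeobox gene of the list, to 3.21 ± 0.566 TPM at 16 hpf, against 7.71 ± 0.729 TPM at 14 hpf.

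Among 43 measured neural progenitor and regional patterning genes 14 rose and 18 fell (5 and 9 without the replicate block). irx7 (ENSDARG00000002601), an Iroquois gene of the midbrain and hindbrain, was at 79.0, 69.7, 73.6 and 72.3 TPM at 16 hpf, against 163, 137, 139 and 137 TPM at 14 hpf, a change of -0.95 ± 0.05 (SE, limma adjusted p = 1.6e-05). her5, a Hairy-related gene of the midbrain-hindbrain boundary, averaged 14.0 ± 1.60 TPM at 16 hpf and 23.2 ± 3.31 TPM at 14 hpf. pax6 (ENSDARG00000045936), of eye, forebrain and hindbrain, averaged 20.7 ± 1.96 TPM at 16 hpf and 32.2 ± 1.05 TPM at 14 hpf, and zic2 (ENSDARG00000037178), of the dorsal neural tube, 127 ± 10.5 TPM at 16 hpf and 199 ± 19.0 TPM at 14 hpf, and all 4 fell. Of the genes that rose, en2 (ENSDARG00000038868), an engrailed gene of the midbrain-hindbrain boundary, and dbx1 (ENSDARG00000001859), a homeobox gene of neural progenitors, were named after their values were seen. en2 was at 11.8, 25.5, 17.2 and 26.1 TPM at 16 hpf, against 5.93, 11.7, 9.45 and 13.8 TPM at 14 hpf, a rise of 0.91 (limma adjusted p = 0.00028). dbx1 was at 6.73, 9.91, 11.2 and 13.0 TPM at 16 hpf, against 4.13, 5.67, 6.81 and 7.93 TPM at 14 hpf, a rise of 0.65 (limma adjusted p = 0.00054). The stages overlapped for both, with the libraries numbered 2 above those numbered 1 of the same cross.

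The eye list held both one of the largest rises and one of the largest falls. rx3 (ENSDARG00000052893), which specifies the eye field, was at 20.2, 23.9, 24.6 and 31.8 TPM at 16 hpf, against 81.8, 91.0, 59.6 and 95.7 TPM at 14 hpf, a change of -1.66 ± 0.12 (SE, limma adjusted p = 4.2e-05). rx1, its relative in the forming retina, was at 5.00, 10.1, 7.32 and 9.57 TPM at 16 hpf, against 0.300, 0.870, 1.19 and 1.32 TPM at 14 hpf, a rise of 2.22 ± 0.14 (SE, limma adjusted p = 2.7e-05). aldh1a3 (ENSDARG00000076933), a retinoic acid synthesis gene of the ventral retina, was at 9.20, 10.7, 8.86 and 8.51 TPM at 16 hpf, against 0.310, 0.850, 0.850 and 0.980 TPM at 14 hpf. It was under 1 TPM in all libraries of 14 hpf and its rise was 2.58 ± 0.14 (SE, limma adjusted p = 1.5e-05). mab21l1, of the optic cup, averaged 4.28 ± 1.52 TPM at 16 hpf and 1.82 ± 0.502 TPM at 14 hpf and maf (ENSDARG00000076520), of the lens and other tissues, 1.31 ± 0.361 TPM at 16 hpf and 3.90 ± 0.242 TPM at 14 hpf. In all, 12 of 18 measured members rose and 3 fell (8 and 2 without the replicate block). The crystallin genes of the lens in this list were not called. crybb1 was at 0.270, 0.700, 0.320 and 1.01 TPM at 16 hpf, against 0.180, 7.41, 0 and 2.00 TPM at 14 hpf, high in the libraries numbered 2 of 14 hpf as the muscle genes above. With the libraries numbered 1 only 10 members rose and 3 fell, and with those numbered 2 only 9 rose and 4 fell. six7, a homeobox gene of the head that is outside this list, fell by 1.63, to 6.20 ± 0.633 TPM at 16 hpf, against 21.4 ± 2.86 TPM at 14 hpf.

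Of 22 measured placode and ear genes 11 rose and 8 fell (4 and 5 without the replicate block). pax8 (ENSDARG00000015879), the earliest Pax gene of the otic placode and also a pronephros gene, was at 13.9, 11.9, 14.6 and 16.6 TPM at 16 hpf, against 36.4, 31.4, 32.4 and 33.3 TPM at 14 hpf, a change of -1.18 ± 0.09 (SE, limma adjusted p = 5.6e-05). stm, the starmaker gene of the otolith, averaged 59.8 ± 9.20 TPM at 16 hpf and 109.5 ± 27.1 TPM at 14 hpf, otx2, of the forebrain and anterior placodes, 28.5 ± 3.98 TPM at 16 hpf and 52.8 ± 6.20 TPM at 14 hpf and gata2, of preplacodal ectoderm, blood and epidermis, 48.1 ± 2.94 TPM at 16 hpf and 70.2 ± 4.91 TPM at 14 hpf, and all 3 fell. Placode genes dlx5 and tbx2 (ENSDARG00000006120) rose by 0.70 and 0.49, but neither passed without the replicate block (limma adjusted p = 0.067 and 0.073).

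In the neural crest list 12 of 19 measured members rose and 4 fell (8 and 3 without the replicate block). ednrab (ENSDARG00000062262), an endothelin receptor gene of crest cells, was at 12.1, 12.4, 14.7 and 13.8 TPM at 16 hpf, against 1.02, 1.47, 1.12 and 1.06 TPM at 14 hpf. The lowest library of 16 hpf was at 12.1 TPM and the highest of 14 hpf at 1.47 TPM, and the rise was 2.72 ± 0.11 (SE, limma adjusted p = 4.8e-06). crestin, a marker of migrating and premigratory crest, was at 6.81, 8.02, 8.45 and 8.50 TPM at 16 hpf, against 1.81, 1.74, 1.86 and 2.90 TPM at 14 hpf, a rise of 1.55 ± 0.11 (SE, limma adjusted p = 3.1e-05). inka1a averaged 13.5 ± 1.70 TPM at 16 hpf and 4.88 ± 1.14 TPM at 14 hpf and snai1b, a Snail-family repressor gene, 31.9 ± 4.01 TPM at 16 hpf and 22.6 ± 4.67 TPM at 14 hpf. twist1a, a bHLH gene of cranial crest and sclerotome, fell to 18.8 ± 2.12 TPM at 16 hpf, against 30.9 ± 2.06 TPM at 14 hpf, and mycn, a Myc gene of proliferating neural tissue, to 129.8 ± 11.3 TPM at 16 hpf, against 168 ± 14.8 TPM at 14 hpf. Of 8 measured pigment cell genes 3 rose and 1 fell. Most of their summed level came from paics, a purine synthesis gene, at 743, 693, 658 and 743 TPM at 16 hpf, against 780, 743, 774 and 733 TPM at 14 hpf, which was not called (limma adjusted p = 0.17). The called members were low, with tfec, of iridophore precursors, at 2.30 ± 0.474 TPM at 16 hpf and 0.412 ± 0.263 TPM at 14 hpf, pax7 (ENSDARG00000070818), of xanthophores, at 3.64 ± 1.63 TPM at 16 hpf and 1.52 ± 0.255 TPM at 14 hpf and kit, a receptor gene of melanophores, at 2.06 ± 0.256 TPM at 16 hpf and 1.14 ± 0.198 TPM at 14 hpf. pnp4a, a purine synthesis gene of iridophores, was at 4.98, 3.65, 0.120 and 0.250 TPM at 16 hpf, against 10.8, 11.5, 1.82 and 1.22 TPM at 14 hpf. Its MPNP libraries lay above its PNP libraries at both stages, and it fell in both crosses. The number of pigment genes that rose was 5 without the second MPNP library of 16 hpf.

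Of 22 measured primitive blood genes 10 rose and 5 fell (8 and 4 without the replicate block), with a median of 0.19 that was -0.0048 over members with a mean of at least 5 TPM. Of 16 endothelial genes 9 rose and 0 fell (8 and 0 without the replicate block). spi1 (ENSDARG00000000767), the ETS factor of myeloid cells, was at 6.08, 8.67, 8.68 and 9.12 TPM at 16 hpf, against 0.600, 0.640, 1.12 and 0.750 TPM at 14 hpf, a rise of 2.36 ± 0.13 (SE, limma adjusted p = 1.5e-05). gata1a (ENSDARG00000013477), the factor of erythroid cells, was at 5.70, 5.24, 8.60 and 8.56 TPM at 16 hpf, against 0.930, 1.63, 2.60 and 2.10 TPM at 14 hpf, a rise of 1.52 ± 0.12 (SE, limma adjusted p = 6.2e-05). tal1 and lmo2, of the common precursors of blood and vessels, averaged 30.6 ± 1.86 TPM at 16 hpf and 14.4 ± 2.60 TPM at 14 hpf for tal1 and 50.0 ± 6.80 TPM at 16 hpf and 25.3 ± 5.73 TPM at 14 hpf for lmo2. myb, of blood progenitors and other dividing cells, rose by 1.37. lcp1, an actin-bundling protein of leukocytes that is also in the early embryo, fell to 25.5 ± 5.18 TPM at 16 hpf, against 51.6 ± 10.8 TPM at 14 hpf.

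etsrp (ENSDARG00000053868), the ETS factor at the head of vessel formation, was at 44.2, 46.2, 39.5 and 41.1 TPM at 16 hpf, against 21.9, 24.7, 27.2 and 29.5 TPM at 14 hpf, a rise of 0.71 ± 0.09 (SE, limma adjusted p = 0.00059). Other genes of the list had larger changes. egfl7 (ENSDARG00000100657), a secreted factor of endothelial cells, was at 7.80, 6.71, 9.22 and 7.48 TPM at 16 hpf, against 2.41, 1.57, 2.68 and 1.49 TPM at 14 hpf, a rise of 1.55 ± 0.10 (SE, limma adjusted p = 2.3e-05). clec14a, an endothelial lectin gene, averaged 2.75 ± 0.777 TPM at 16 hpf and 0.465 ± 0.195 TPM at 14 hpf and sox7, a SoxF factor gene, 6.08 ± 0.709 TPM at 16 hpf and 1.92 ± 0.170 TPM at 14 hpf. dusp5, a MAP kinase phosphatase gene, averaged 11.8 ± 1.31 TPM at 16 hpf and 5.18 ± 1.60 TPM at 14 hpf and she, a vascular adaptor gene, 3.97 ± 0.430 TPM at 16 hpf and 1.39 ± 0.253 TPM at 14 hpf. Whether these changes differ from that of etsrp was not tested.

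Of 9 measured heart genes 3 rose and 4 fell (3 and 3 without the replicate block). The cardiac troponin T symbol tnnt2 (ENSDARG00000020610) was at 3.94, 5.39, 7.06 and 8.00 TPM at 16 hpf, against 0.490, 0.910, 0.640 and 0.530 TPM at 14 hpf, below 1 TPM in each library of 14 hpf, a rise of 2.08 ± 0.17 (SE, limma adjusted p = 6.2e-05). gata6 and gata5, cardiac factors shared with endoderm, fell, gata6 to 44.6 ± 4.18 TPM at 16 hpf, against 74.4 ± 7.30 TPM at 14 hpf and gata5 to 45.8 ± 5.95 TPM at 16 hpf, against 62.6 ± 6.60 TPM at 14 hpf. nkx2.7, a cardiac homeobox gene, averaged 34.0 ± 3.24 TPM at 16 hpf and 45.6 ± 4.52 TPM at 14 hpf. Its fall did not pass in the fit on all 20 libraries (limma adjusted p = 0.37). In the kidney and lateral plate list 6 of 14 rose and 5 fell (5 and 4 without the replicate block), with a median of 0.14 that was -0.23 over members with a mean of at least 5 TPM. cdh17, a cadherin gene of the pronephric epithelium, rose to 5.91 ± 1.25 TPM at 16 hpf, against 1.91 ± 0.537 TPM at 14 hpf, and cldn3c, a claudin gene, to 14.9 ± 2.28 TPM at 16 hpf, against 3.78 ± 0.822 TPM at 14 hpf. The mesoderm factor genes osr1 and lhx1a fell, osr1 to 10.8 ± 0.751 TPM at 16 hpf, against 20.2 ± 2.46 TPM at 14 hpf and lhx1a to 4.53 ± 0.737 TPM at 16 hpf, against 8.15 ± 1.11 TPM at 14 hpf, beside pax8 above.

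Of 16 measured genes of endoderm and its organs 8 fell and 4 rose (5 and 2 without the replicate block). cxcr4 (ENSDARG00000057633), a chemokine receptor gene that this list and the germ cell list share, was at 17.1, 16.8, 18.4 and 20.8 TPM at 16 hpf, against 56.6, 46.2, 42.8 and 40.5 TPM at 14 hpf, a change of -1.30 ± 0.11 (SE, limma adjusted p = 8.6e-05). foxa3, a forkhead gene of endoderm and hatching gland, averaged 19.4 ± 1.35 TPM at 16 hpf and 25.6 ± 1.69 TPM at 14 hpf. hhex, of the liver and pancreas anlagen and of vessels, rose by 0.83, to 6.90 ± 1.53 TPM at 16 hpf, against 3.50 ± 1.18 TPM at 14 hpf, and cldn3d, a claudin gene, by 1.58, to 6.85 ± 1.68 TPM at 16 hpf, against 1.60 ± 0.432 TPM at 14 hpf.

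Most apolipoprotein and plasma protein genes, which the yolk syncytial layer (the cell layer that feeds yolk to the embryo) expresses before the liver exists, rose, some of them at high levels. Of 23 measured members 16 rose and 5 fell (10 and 2 without the replicate block). apoa4a (ENSDARG00000101160) was at 30.0, 40.5, 22.8 and 25.0 TPM at 16 hpf, against 2.74, 5.17, 1.96 and 2.50 TPM at 14 hpf, a rise of 2.93 ± 0.10 (SE, limma adjusted p = 4.5e-06). apoa2 (ENSDARG00000015866) was at 3412, 2979, 3395 and 2961 TPM at 16 hpf, against 1795, 1541, 2142 and 1704 TPM at 14 hpf, a rise of 0.83 ± 0.05 (SE, limma adjusted p = 2.2e-05). Its libraries did not overlap between stages. apoa4b.1 averaged 399 ± 29.4 TPM at 16 hpf and 205 ± 7.52 TPM at 14 hpf and serpina1l, a serum protease inhibitor gene, 386 ± 27.1 TPM at 16 hpf and 219 ± 38.5 TPM at 14 hpf. rbp4, the plasma retinol carrier, was at 315, 191, 164 and 105 TPM at 16 hpf, against 126, 96.9, 85.4 and 51.0 TPM at 14 hpf. MPNP libraries lay above PNP libraries of the same number at both stages. mttp, the lipid transfer protein gene of lipoprotein assembly, fell to 95.2 ± 24.5 TPM at 16 hpf, against 150.1 ± 43.2 TPM at 14 hpf, though not without the replicate block (limma adjusted p = 0.13). apoeb, an abundant apolipoprotein gene, averaged 4543 TPM at 16 hpf and 5127 TPM at 14 hpf. It fell by a small amount (-0.18 ± 0.04, limma adjusted p = 0.011), and its libraries did not overlap between stages. apobb.1, at 360 and 342 TPM on average, was not called (limma adjusted p = 0.51).

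Hatching enzyme genes rose. he1.1 (ENSDARG00000023656), a hatching enzyme gene, was at 701, 729.6, 686 and 579.5 TPM at 16 hpf, against 188, 199, 306 and 257 TPM at 14 hpf, a rise of 1.52 ± 0.14 (SE, limma adjusted p = 0.00011), and he1.2 averaged 187 ± 18.7 TPM at 16 hpf and 59.7 ± 14.0 TPM at 14 hpf. ctslb, a cathepsin gene of the gland, averaged 78.6 ± 23.7 TPM at 16 hpf and 41.6 ± 9.34 TPM at 14 hpf. cd63, a tetraspanin gene, averaged 116 ± 23.0 TPM at 16 hpf and 87.5 ± 18.6 TPM at 14 hpf and agr2, a secretory pathway gene, 3.13 ± 0.360 TPM at 16 hpf and 1.89 ± 0.686 TPM at 14 hpf, and neither passed without the replicate block (limma adjusted p = 0.2 and 0.071). klf17, the Krüppel-like factor that specifies the gland, was at 58.0 ± 3.75 TPM at 16 hpf and 67.1 ± 1.48 TPM at 14 hpf (change -0.21 ± 0.05, limma adjusted p = 0.011, and 0.099 without the replicate block). Of 9 measured members 5 rose and 1 fell (3 and 0 without the replicate block).

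Epidermal genes split evenly, with 10 of 35 higher and 10 lower (5 and 2 without the replicate block). The type I keratin genes cyt1 and cyt1l were among the most abundant, with cyt1l at 2537, 2129.6, 2735 and 2145 TPM at 16 hpf, against 1711, 1392, 1994 and 1477 TPM at 14 hpf, a rise of 0.54 ± 0.04 (SE, limma adjusted p = 6.2e-05). cyt1 rose by 0.43 (limma adjusted p = 9.4e-05, and 0.085 without the replicate block). krt97, another keratin gene, was at 536, 488, 475 and 486 TPM at 16 hpf, against 810.3, 766, 757 and 709 TPM at 14 hpf, a change of -0.61 ± 0.04 (SE, limma adjusted p = 2.5e-05). cldni, a claudin gene of the skin, averaged 208 ± 62.6 TPM at 16 hpf and 121 ± 24.4 TPM at 14 hpf, and the ictacalcin genes icn and icn2, which encode small calcium-binding proteins of the skin, 347 ± 107 TPM at 16 hpf and 259 ± 74.5 TPM at 14 hpf for icn and 156 ± 15.2 TPM at 16 hpf and 104 ± 15.9 TPM at 14 hpf for icn2. For icn the call was lost without the replicate block (limma adjusted p = 0.31).

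Genes of motile cilia rose. Of 34 measured cilia genes 22 rose and 1 fell, with a median of 0.60 (16 and 0 without the replicate block). The median was 0.12 over members with a mean of at least 5 TPM. daw1 (ENSDARG00000021462), an assembly factor gene of dynein arms, was at 9.07, 8.53, 6.36 and 5.43 TPM at 16 hpf, against 2.22, 2.58, 3.15 and 1.75 TPM at 14 hpf, a rise of 1.28 ± 0.15 (SE, limma adjusted p = 0.00042). odad3 and odad4, genes of the outer dynein arm docking complex, averaged 2.91 ± 0.285 TPM at 16 hpf and 0.853 ± 0.170 TPM at 14 hpf for odad3 and 4.08 ± 1.33 TPM at 16 hpf and 1.06 ± 0.164 TPM at 14 hpf for odad4. cfap45, an inner microtubule protein gene, averaged 2.56 ± 0.235 TPM at 16 hpf and 0.743 ± 0.179 TPM at 14 hpf, rsph1, a radial spoke gene, 11.5 ± 1.68 TPM at 16 hpf and 5.15 ± 0.564 TPM at 14 hpf and spag6, a central pair gene, 3.52 ± 0.812 TPM at 16 hpf and 1.12 ± 0.313 TPM at 14 hpf. For odad4 the 16 hpf values were higher in the MPNP libraries, at 4.98 and 5.45 TPM, than in the PNP libraries, at 2.87 and 3.01 TPM.

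Cilia in Kupffer's vesicle start the asymmetry between left and right, which Nodal signals then carry into the lateral mesoderm and which Lefty proteins restrain. Of 8 measured left-right genes 3 rose and 3 fell. lft1 (ENSDARG00000019920), a Lefty gene of the midline, was at 3.38, 3.18, 4.98 and 5.10 TPM at 16 hpf, against 19.0, 18.5, 15.0 and 17.9 TPM at 14 hpf, a change of -1.86 ± 0.14 (SE, limma adjusted p = 4.7e-05). lft2 (ENSDARG00000044059), the other Lefty gene, was at 0.550, 0.370, 0.660 and 0.530 TPM at 16 hpf, against 4.57, 3.17, 4.01 and 3.00 TPM at 14 hpf, a change of -1.61 ± 0.12 (SE, limma adjusted p = 4.4e-05). bmp4 averaged 11.1 ± 1.11 TPM at 16 hpf and 14.6 ± 0.845 TPM at 14 hpf. dand5, an antagonist of Nodal at Kupffer's vesicle, rose by 0.46 and galnt11, a glycosyltransferase gene of the list, by 0.19. Neither passed without the replicate block (limma adjusted p = 0.15 and 0.19). In that fit none of the 3 rises of the list was called. With the replicate block, the number that rose was 0 without any one of 4 libraries (both MPNP libraries of 14 hpf, the first PNP library of 14 hpf or the second MPNP library of 16 hpf) and 1 without the first MPNP or the first PNP library of 16 hpf.

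Transcripts of the early embryo and of germ cells fell. Of 16 measured early embryo and maternal genes 9 fell and 1 rose, with a median of -0.73, with the same counts without the replicate block. gsc (ENSDARG00000059073), the goosecoid gene of the dorsal organizer, was at 2.57, 2.29, 2.15 and 2.68 TPM at 16 hpf, against 10.5, 12.4, 10.0 and 14.3 TPM at 14 hpf, a change of -1.89 ± 0.10 (SE, limma adjusted p = 1.6e-05). chrd, the organizer's Bmp antagonist, was at 26.9, 24.6, 27.3 and 31.9 TPM at 16 hpf, against 62.8, 70.1, 58.5 and 65.9 TPM at 14 hpf, a change of -1.19 ± 0.08 (SE, limma adjusted p = 3.1e-05). The ventral homeobox genes fell in the same interval, with vox at 99.2 ± 13.0 TPM at 16 hpf and 163 ± 17.8 TPM at 14 hpf, vent at 17.2 ± 1.24 TPM at 16 hpf and 33.5 ± 1.02 TPM at 14 hpf and ved at 87.7 ± 11.3 TPM at 16 hpf and 182 ± 10.5 TPM at 14 hpf. pou5f3 was at 4.54, 3.34, 4.48 and 3.95 TPM at 16 hpf, against 11.3, 9.31, 10.6 and 10.7 TPM at 14 hpf. Of 9 measured germ cell genes 6 fell and 0 rose (4 and 0 without the replicate block). The largest of these falls, of -1.30, was that of cxcr4 above, which is also counted in the endoderm list. Its symbol has no paralog letter, so its place among the germ cell genes is uncertain. ddx4 (ENSDARG00000014373), the vasa RNA helicase gene of germ cells, was at 2.30, 2.89, 2.09 and 1.80 TPM at 16 hpf, against 4.82, 4.91, 4.71 and 5.74 TPM at 14 hpf, a change of -0.89 ± 0.12 (SE, limma adjusted p = 0.00078). dnd1, a germ cell RNA-binding protein gene, averaged 0.718 ± 0.0709 TPM at 16 hpf and 1.63 ± 0.240 TPM at 14 hpf. celf1, an RNA-binding protein gene whose maternal transcript is in germ cells, averaged 137 ± 14.1 TPM at 16 hpf and 187 ± 17.8 TPM at 14 hpf. nanos3 and tdrd7a also fell, by 0.53 and 0.49, and did not pass without the replicate block (limma adjusted p = 0.066 and 0.062). Their adjusted p was also above 0.05 without some single libraries, with values up to 0.068 for nanos3 and 0.069 for tdrd7a.

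**Figure D3:**
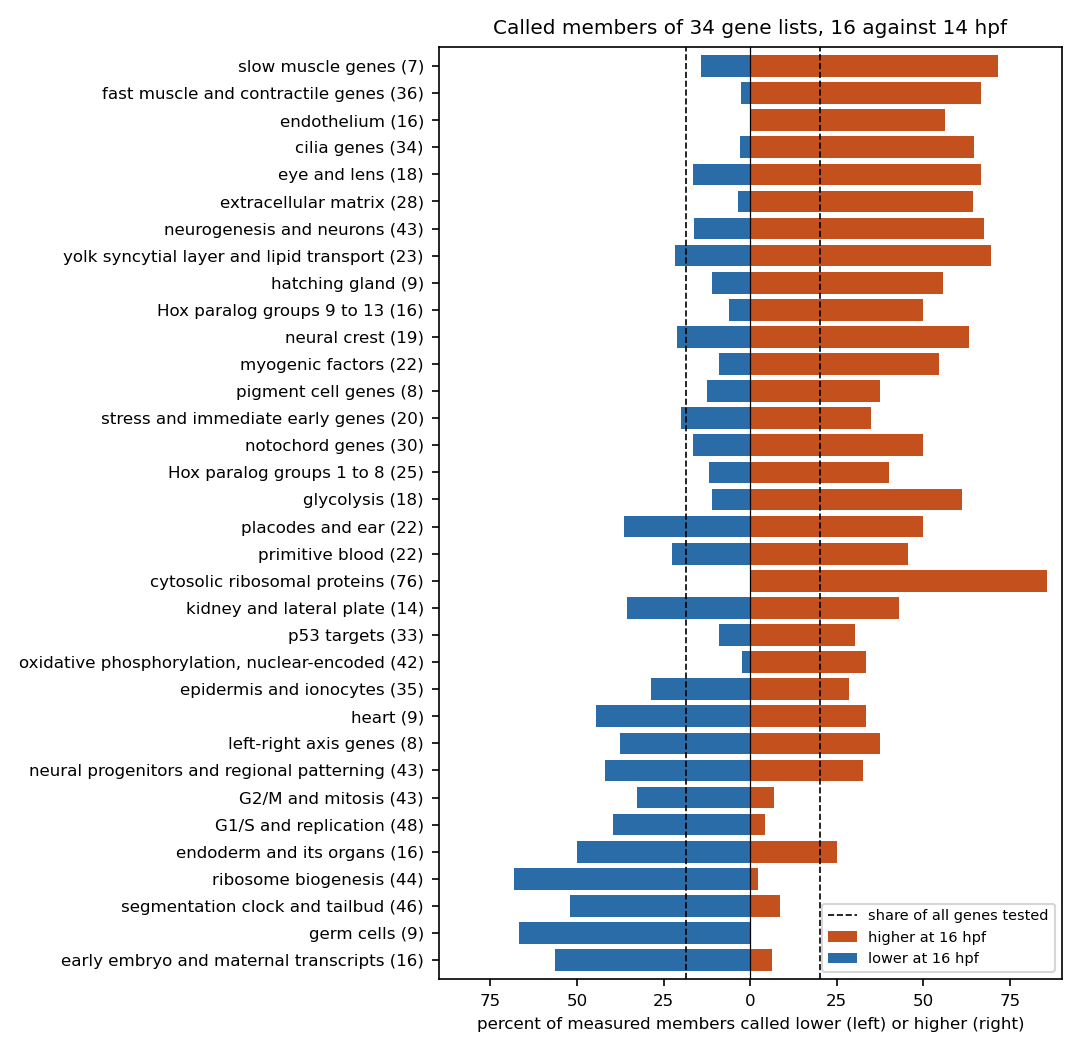
Percent of the measured members of each of 34 gene lists called lower at 16 hpf (blue, left) or higher (orange, right), ordered by the list's median change, with the number measured in parentheses. Dashed lines mark the shares of all genes tested, 18.6% lower and 20.0% higher. Muscle, endothelium and cilia stand near the top, and early embryo, germ cell and tailbud lists at the bottom.

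Part of the cell cycle genes fell, by small amounts. Of 48 measured G1/S and replication genes 19 fell and 2 rose, and of 43 G2/M and mitosis genes 14 fell and 3 rose, with medians of -0.15 and -0.14. After quantile normalization the medians were -0.075 and -0.067, which is -0.038 and -0.03 relative to the median of all genes. The counts that fell were 4 and 1 without the replicate block, and 12 for G1/S without the first MPNP library of 14 hpf. The number of G2/M genes that rose was 1 without either MPNP library of 14 hpf, without the second MPNP library of 16 hpf or without the first PNP library of 16 hpf. ccne1 (ENSDARG00000098622), the cyclin E gene, was at 14.9, 17.0, 16.2 and 22.2 TPM at 16 hpf, against 27.9, 30.3, 29.3 and 29.3 TPM at 14 hpf, a change of -0.71 ± 0.08 (SE, limma adjusted p = 0.00042). cdt1, a replication licensing gene, was at 32.9, 34.5, 37.9 and 40.3 TPM at 16 hpf, against 52.5, 52.8, 52.4 and 59.5 TPM at 14 hpf, a change of -0.57 ± 0.05 (SE, limma adjusted p = 0.00013). mcm5, of the replicative helicase, averaged 194 ± 28.7 TPM at 16 hpf and 233 ± 22.7 TPM at 14 hpf, ccna2, a cyclin A gene, 41.2 ± 3.90 TPM at 16 hpf and 50.0 ± 1.48 TPM at 14 hpf and ccnb2, a cyclin B gene, 32.3 ± 3.08 TPM at 16 hpf and 42.7 ± 2.84 TPM at 14 hpf. ccnb1, the main cyclin B gene, was at 194, 263, 188 and 266 TPM at 16 hpf, against 226, 358, 210.1 and 303 TPM at 14 hpf. The libraries numbered 2 lay above those numbered 1, and its call was lost without the replicate block (limma adjusted p = 0.46), as were those of aurka, racgap1, wee1, hmgb2, slbp and dhfr, with adjusted p from 0.06 to 0.27.

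Genes for the making of ribosomes fell and genes for the proteins of ribosomes rose, both by small amounts. Of 44 measured ribosome biogenesis genes 30 fell and 1 rose, with a median of -0.26 (6 and 1 without the replicate block). dkc1 (ENSDARG00000016484), the pseudouridine synthase gene, was at 336, 311, 371 and 363 TPM at 16 hpf, against 453, 405, 468 and 432 TPM at 14 hpf, a change of -0.35 ± 0.04 (SE, limma adjusted p = 0.00048). nop58, of the small nucleolar ribonucleoprotein, averaged 333 ± 33.5 TPM at 16 hpf and 414 ± 42.1 TPM at 14 hpf, nifk 167 ± 30.2 TPM at 16 hpf and 216 ± 35.9 TPM at 14 hpf and wdr43 232 ± 60.9 TPM at 16 hpf and 299 ± 64.8 TPM at 14 hpf, and these 3 did not pass without the replicate block (limma adjusted p = 0.074, 0.18 and 0.3). The gene that rose was myc (ENSDARG00000045695), a regulator of this pathway, at 13.7 ± 0.732 TPM at 16 hpf and 6.54 ± 1.08 TPM at 14 hpf. Of 76 measured cytosolic ribosomal protein genes 65 rose and 0 fell, each by at most 0.31, with a median of 0.16 (0.088 after quantile normalization). This count rests on the model: 1 rose without the replicate block, 24 after quantile normalization, 19 after median-ratio scaling, and between 36 and 40 without any one MPNP library or the second PNP library of 14 hpf. rps9 was at 6979.7, 4121, 7572 and 4272 TPM at 16 hpf, against 6234, 3475, 6329 and 3637 TPM at 14 hpf, and the libraries numbered 1 lay above those numbered 2 by more than the stages differed. Without the replicate block the adjusted p in limma was 0.66 for rps9, 0.4 for rps18, 0.28 for rpl19, 0.33 for rpl9 and 0.066 for rpl5 (ENSDARG00000020197). rpl22l1 (ENSDARG00000010244), a paralog of rpl22 in the list, was at 506, 524, 583 and 619 TPM at 16 hpf, against 396, 455, 479 and 466 TPM at 14 hpf, a rise of 0.31 ± 0.05 (SE, limma adjusted p = 0.0012), and was called in both fits. Summed over the list, ribosomal protein genes held 266095 ± 27667 TPM at 16 hpf and 238206 ± 33291 TPM at 14 hpf (mean ± SD, n = 4), with ranges of 239809 to 290580.5 and 205333 to 272782 TPM that overlapped.

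Of 18 measured glycolysis genes 11 rose, 3 of them by at least 1, and 2 fell, and of 42 nuclear-encoded genes of oxidative phosphorylation 14 rose, 0 of them by at least 1, and 1 fell (6 and 0, and 4 and 0, without the replicate block). The muscle aldolase symbol aldoa stood for 2 genes. ENSDARG00000034470 was at 8.15, 7.63, 9.62 and 8.52 TPM at 16 hpf, against 1.59, 2.34, 2.68 and 4.48 TPM at 14 hpf, a rise of 1.38 ± 0.15 (SE, limma adjusted p = 0.00029). ENSDARG00000011665, the more abundant, was at 618, 492, 663 and 582 TPM at 16 hpf, against 741, 581, 724 and 577 TPM at 14 hpf, a change of -0.15 ± 0.05 (SE, limma adjusted p = 0.044) with stages that overlapped, and was not called without the replicate block. A further aldolase gene, aldoc (ENSDARG00000019702), was at 25.0, 22.9, 7.34 and 6.93 TPM at 16 hpf, against 7.75, 14.4, 3.13 and 2.81 TPM at 14 hpf. Its MPNP libraries were above its PNP libraries at both stages. hk1, a hexokinase gene, averaged 36.1 ± 4.69 TPM at 16 hpf and 26.5 ± 3.14 TPM at 14 hpf and tpi1 (ENSDARG00000040988), the triosephosphate isomerase gene, 71.5 ± 8.36 TPM at 16 hpf and 52.3 ± 6.55 TPM at 14 hpf. uqcrc2a, a subunit gene of complex III, averaged 69.0 ± 2.08 TPM at 16 hpf and 53.1 ± 2.32 TPM at 14 hpf, a rise of 0.37 ± 0.05 (SE, limma adjusted p = 0.00051), and atp5pf, of the ATP synthase, averaged 168 ± 4.27 TPM at 16 hpf and 137 ± 3.44 TPM at 14 hpf. The calls of gapdh, ldhb, atp5mc1, atp5po, ndufb10 and cycsb were lost without the replicate block, with limma adjusted p from 0.1 to 0.35. No glycolysis gene fell without any one of 6 libraries, namely all but the second PNP library of each stage.

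Of 33 measured p53 target genes 10 rose and 3 fell, with a median of 0.12 (2 and 1 without the replicate block). The share that rose, 30.3%, stands beside 20.0% of all genes. ccng1 (ENSDARG00000076667), the cyclin G gene, was at 1244, 1437, 509 and 582 TPM at 16 hpf, against 849, 1207, 408 and 420.1 TPM at 14 hpf. MPNP libraries were above PNP libraries at both stages, and the stage change of 0.40 ± 0.07 (limma adjusted p = 0.0023) was lost without the replicate block (adjusted p = 0.064). rps27l, a ribosomal-protein-like p53 target, averaged 109 ± 60.4 TPM at 16 hpf and 79.2 ± 52.4 TPM at 14 hpf, with adjusted p = 0.0034 in limma and 0.14 without the replicate block. plk2 (ENSDARG00000019130), a Polo-like kinase gene, averaged 2.89 ± 0.145 TPM at 16 hpf and 1.10 ± 0.189 TPM at 14 hpf and was called in both fits. gadd45a (ENSDARG00000104571), a growth arrest gene, changed by 0.48 ± 0.09 and perp, an epidermal adhesion gene, by -0.30 ± 0.06, and neither passed without the replicate block (limma adjusted p = 0.089 and 0.27). ddb2, a DNA damage recognition gene, was at 9.83, 13.9, 14.0 and 14.6 TPM at 16 hpf, against 23.4, 24.6, 24.1 and 31.9 TPM at 14 hpf, a change of -0.95 ± 0.08 (SE, limma adjusted p = 9.4e-05). foxo3b, a forkhead factor gene named in the title of the study, was at 64.1, 67.5, 9.87 and 8.50 TPM at 16 hpf, against 42.5, 72.7, 5.79 and 6.63 TPM at 14 hpf, and its change of 0.37 ± 0.14 did not pass (limma adjusted p = 0.064). It passed as a rise when pairs of the same cross and replicate number were blocked (adjusted p = 0.048 in limma), without the second MPNP library of 14 hpf (change 0.54, adjusted p = 0.0034) with the libraries numbered 1 only (change 0.63, adjusted p = 0.0052) and, at an adjusted p that rounds to 0.05, among genes with a mean of at least 5 TPM. fbxw7, a ubiquitin ligase gene also named there, averaged 23.3 ± 7.89 TPM at 16 hpf and 23.9 ± 7.83 TPM at 14 hpf and did not pass (limma adjusted p = 0.83).

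Of 20 measured stress and immediate early genes 7 were higher and 4 lower (6 and 2 without the replicate block). These are 35% and 20% of the list, beside 20.0% and 18.6% of all genes tested, so the share that fell was near that of all genes. The number that fell was 2 without the replicate block, without the first library of either cross at 14 hpf and without either MPNP library of 16 hpf. hsp90aa1.1 (ENSDARG00000010478), the Hsp90 chaperone gene that folds muscle myosin in zebrafish, was at 191, 214, 211 and 212 TPM at 16 hpf, against 92.6, 109, 118 and 135 TPM at 14 hpf, a rise of 0.87 ± 0.06 (SE, limma adjusted p = 4.6e-05). egr2a, a zinc-finger gene on this list that is also a hindbrain segment gene, averaged 2.91 ± 0.529 TPM at 16 hpf and 0.920 ± 0.336 TPM at 14 hpf. junb (ENSDARG00000074378) averaged 2.62 ± 0.777 TPM at 16 hpf and 0.422 ± 0.184 TPM at 14 hpf and jun 38.5 ± 16.0 TPM at 16 hpf and 23.4 ± 8.47 TPM at 14 hpf, both AP-1 genes. dnajb1b, an Hsp40 gene, fell to 51.9 ± 3.93 TPM at 16 hpf, against 75.5 ± 8.65 TPM at 14 hpf, and cry5, of the photolyase and cryptochrome family, to 2.83 ± 0.396 TPM at 16 hpf, against 7.18 ± 0.812 TPM at 14 hpf.

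Several of the largest and most precisely measured falls lay outside the lists. frzb (ENSDARG00000018383), a secreted Wnt antagonist gene, was at 1.73, 2.36, 1.43 and 2.79 TPM at 16 hpf, against 9.97, 15.3, 6.92 and 11.3 TPM at 14 hpf, a change of -1.92 ± 0.12 (SE, limma adjusted p = 2.1e-05). The highest library of 16 hpf was at 2.79 TPM and the lowest of 14 hpf at 6.92 TPM. hspb1 (ENSDARG00000041065), a small heat shock protein gene, was at 2133, 1689, 1967 and 1757 TPM at 16 hpf, against 4836, 3620.4, 4431 and 3486 TPM at 14 hpf, a change of -1.11 ± 0.05 (SE, limma adjusted p = 7.5e-06), and was the most abundant gene among the falls named in this paragraph. slc22a5 (ENSDARG00000101021), a carnitine transporter gene, was at 12.9, 10.7, 13.7 and 13.8 TPM at 16 hpf, against 44.6, 39.7, 40.7 and 43.7 TPM at 14 hpf, a change of -1.65 ± 0.08 (SE, limma adjusted p = 1.0e-05). slc3a2, the heavy chain gene of amino acid transporters, averaged 15.0 ± 0.939 TPM at 16 hpf and 39.0 ± 4.82 TPM at 14 hpf, and entpd1, an ectonucleotidase gene, 43.6 ± 4.23 TPM at 16 hpf and 108 ± 13.6 TPM at 14 hpf. tagln (ENSDARG00000033466), an actin-binding transgelin gene, averaged 400.2 ± 99.6 TPM at 16 hpf and 739 ± 166 TPM at 14 hpf and alcamb, an adhesion molecule gene, 336 ± 29.4 TPM at 16 hpf and 569 ± 44.6 TPM at 14 hpf. The clone-named si:ch211-152c2.3 (ENSDARG00000045898) was at 270.3, 176, 276 and 254 TPM at 16 hpf, against 1518, 1111, 1237 and 1024 TPM at 14 hpf, a change of -2.33 ± 0.11 (SE, limma adjusted p = 1.0e-05). It was 1 of the 2 genes that fell by at least 2. The other, si:dkey-84h14.3 (ENSDARG00000096188), was named after its values were seen. It was at 0, 5.80, 0 and 19.4 TPM at 16 hpf, against 8.98, 11.3, 11.3 and 32.5 TPM at 14 hpf, so its stages overlapped. A further clone-named gene, si:ch211-165f21.6 (ENSDARG00000090099), averaged 18.6 ± 3.78 TPM at 16 hpf and 42.8 ± 10.5 TPM at 14 hpf. scp2b, a sterol carrier protein gene, averaged 28.0 ± 4.42 TPM at 16 hpf and 57.1 ± 7.63 TPM at 14 hpf.

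Other large falls were in genes of moderate level. alox5b.3, a lipoxygenase gene, averaged 6.90 ± 2.68 TPM at 16 hpf and 26.4 ± 6.78 TPM at 14 hpf, ca9, a carbonic anhydrase gene, 2.00 ± 0.720 TPM at 16 hpf and 10.0 ± 3.41 TPM at 14 hpf and pnhd, a secreted Bmp and Nodal pathway factor gene in Xenopus, 5.90 ± 1.52 TPM at 16 hpf and 21.7 ± 1.28 TPM at 14 hpf. il23r, an interleukin receptor gene, averaged 0.965 ± 0.447 TPM at 16 hpf and 6.12 ± 1.09 TPM at 14 hpf, rims2b, of the presynaptic active zone, 2.82 ± 0.462 TPM at 16 hpf and 11.5 ± 2.74 TPM at 14 hpf and b3gnt5 (ENSDARG00000018971), a glycosyltransferase gene, 3.46 ± 0.706 TPM at 16 hpf and 12.2 ± 1.89 TPM at 14 hpf. cry1 (ENSDARG00000045768), a cryptochrome gene of the circadian clock, was at 1.52, 2.01, 1.50 and 1.98 TPM at 16 hpf, against 6.12, 5.92, 7.03 and 8.83 TPM at 14 hpf, a change of -1.53 ± 0.11 (SE, limma adjusted p = 4.6e-05). wdr76, a WD-repeat gene, averaged 6.67 ± 0.823 TPM at 16 hpf and 20.3 ± 2.49 TPM at 14 hpf and ppp1r3g, a glycogen-targeting phosphatase subunit gene, 3.96 ± 0.685 TPM at 16 hpf and 12.5 ± 3.22 TPM at 14 hpf.

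Rises outside the lists included genes of secreted proteins and transporters. cfd (ENSDARG00000039579), the complement factor D gene, was at 11.1, 12.3, 13.1 and 10.4 TPM at 16 hpf, against 0.520, 1.48, 1.31 and 1.14 TPM at 14 hpf, a rise of 2.61 ± 0.16 (SE, limma adjusted p = 2.0e-05). aqp8b (ENSDARG00000089749), an aquaporin gene, was at 5.90, 6.11, 5.78 and 6.10 TPM at 16 hpf, against 0.170, 0.320, 0.320 and 0.170 TPM at 14 hpf. Its 4 values at 16 hpf lay within 0.4 TPM of each other, and the rise was 2.49 ± 0.11 (SE, limma adjusted p = 7.9e-06). seraf (ENSDARG00000103443) was at 17.4, 21.6, 23.4 and 23.3 TPM at 16 hpf, against 2.49, 3.28, 4.34 and 4.58 TPM at 14 hpf, a rise of 2.28 ± 0.09 (SE, limma adjusted p = 4.8e-06). slc1a3 (ENSDARG00000104431), a glutamate transporter gene of glia, averaged 44.8 ± 5.11 TPM at 16 hpf and 14.1 ± 1.79 TPM at 14 hpf and rbp2 (ENSDARG00000070038), a cellular retinol-binding protein gene, 46.7 ± 10.8 TPM at 16 hpf and 12.6 ± 3.23 TPM at 14 hpf. fhl1 (ENSDARG00000071498), a LIM-domain gene of muscle, averaged 11.5 ± 2.94 TPM at 16 hpf and 1.79 ± 1.26 TPM at 14 hpf. The clone-named zgc:123103 (ENSDARG00000099200) had the smallest p of all genes tested, at 65.7 ± 6.28 TPM at 16 hpf and 20.4 ± 2.44 TPM at 14 hpf (limma adjusted p = 2.8e-06).

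Genes were taken as switched on when they were under 1 TPM in all 4 libraries of 14 hpf and at 2 TPM or more in all 4 of 16 hpf, and as cleared in the reverse case. These levels chose the genes, so they are a description. There were 30 switched on, 26 of them with a symbol not taken from a clone, and 4 cleared. Of the 30, 12 belonged to the lists above, among them aldh1a3 in the eye, chrnd, chrng and smyhc2 in muscle, tnnt2 in heart, cmn in notochord, clec14a in endothelium and cfap45 in cilia. Outside the lists, slc38a8 (ENSDARG00000054196), an amino acid transporter gene, was at 5.99, 8.74, 5.54 and 6.90 TPM at 16 hpf, against 0.500, 0.600, 0.850 and 0.830 TPM at 14 hpf. c9, a complement gene of the membrane attack complex, averaged 4.92 ± 0.598 TPM at 16 hpf and 0.460 ± 0.146 TPM at 14 hpf, ca6, a secreted carbonic anhydrase gene, 3.76 ± 0.373 TPM at 16 hpf and 0.395 ± 0.0904 TPM at 14 hpf and ptprna, a receptor-type phosphatase gene, 4.68 ± 1.25 TPM at 16 hpf and 0.520 ± 0.206 TPM at 14 hpf. col5a3a, a fibrillar collagen gene of the matrix list, averaged 3.78 ± 0.571 TPM at 16 hpf and 0.532 ± 0.223 TPM at 14 hpf. The 4 cleared genes were lft2 above, rasd2a, a small GTPase gene at 0.417 ± 0.204 TPM at 16 hpf and 3.63 ± 0.168 TPM at 14 hpf, fsbp at 0.780 ± 0.156 TPM at 16 hpf and 3.45 ± 0.615 TPM at 14 hpf and the clone-named si:dkeyp-72h1.1 at 0.365 ± 0.0870 TPM at 16 hpf and 4.27 ± 0.630 TPM at 14 hpf.

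The earlier course of the changed genes came from a fit on all 20 libraries, in which 6677 of 14774 genes rose between 8 and 12 hpf (45.2%) and 4499 fell (30.5%). The contrast of 12 minus 8 hpf shares no library with that of 16 minus 14 hpf. Of 2682 genes that rose between 14 and 16 hpf and were tested in both fits, 1739 (64.8%) had risen between 8 and 12 hpf and 397 (14.8%) had fallen. These 1739 were 26.1% of the genes that rose between 8 and 12 hpf. Of 2791 genes that fell between 14 and 16 hpf, 1533 (54.9%) had fallen before and 783 (28.1%) had risen. For changes of at least 1 the division differed in the number without an earlier call. Of the 364 such rises only 298 were tested in both fits. Of these 298, 141 had risen before, 32 had fallen and 125 had no call, and of 107 such falls 65 had fallen, 35 had risen and 7 had no call. The 364 genes with a rise of at least 1 had a median of mean TPM of 0.254, 0.282, 0.646, 2.17 and 7.79 at 8, 10, 12, 14 and 16 hpf, and the 107 with a fall of at least 1 had 35.6, 33.8, 24.2, 12.3 and 4.58 TPM. The levels of the rising genes up to 12 hpf were near the floor of the log2(TPM + 1) scale. A missing earlier call among them therefore does not show a missing change.

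Single genes followed several courses. smyhc1 averaged 0.115, 0.105, 0.310, 6.95 and 43.7 TPM at 8, 10, 12, 14 and 16 hpf, so that it was near 0 until 12 hpf. cdx1a averaged 25.0, 71.9, 91.7, 47.8 and 18.4 TPM, with its highest mean at 12 hpf. slc3a2 averaged 567, 447, 153, 39.0 and 15.0 TPM, a fall through all stages. tfec averaged 37.3, 4.62, 0.645, 0.412 and 2.30 TPM, high at 8 hpf, low at 12 and 14 hpf and higher again at 16 hpf. inka1a had a similar course, at 39.4, 30.4, 10.0, 4.88 and 13.5 TPM.

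**Figure D4:**
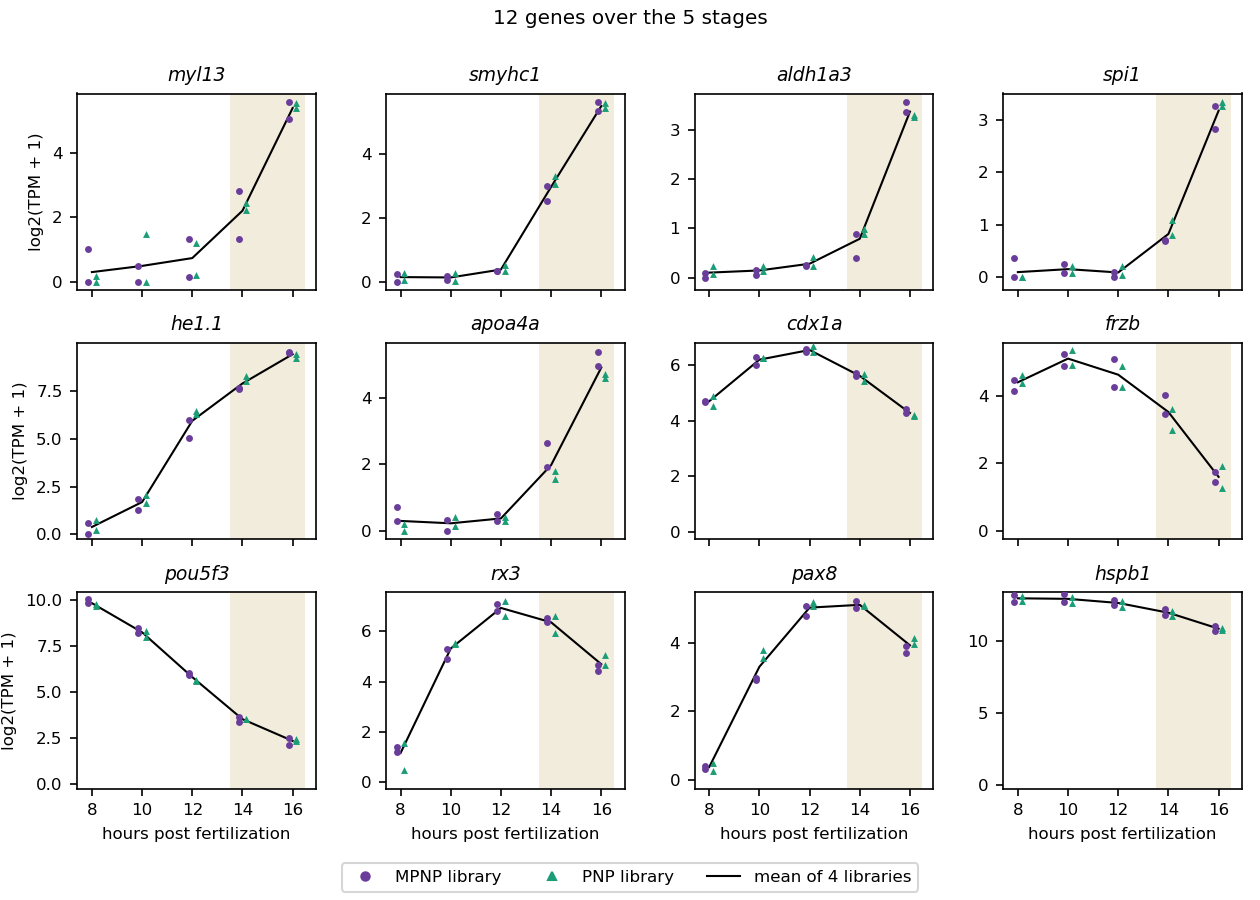
log2(TPM + 1) of 12 genes at 8, 10, 12, 14 and 16 hpf, with each MPNP library as a circle, each PNP library as a triangle and the mean of the 4 libraries of a stage as a line, the last interval shaded. Rising genes such as smyhc1 and spi1 leave the baseline after 12 hpf, cdx1a, rx3 and frzb turn down from an earlier maximum, and pou5f3 falls through every interval.

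The change from 14 to 16 hpf was also set against the change from 10 to 12 hpf, an interval of the same length that shares no library with it. In the 20-library fit 1903 of 14774 genes had a higher change in the later interval (12.9%) and 3398 a lower one (23.0%). The split depended on scaling, with 2482 higher and 2810 lower after median-ratio scaling and 2457 and 2964 after quantile normalization. The smallest p belonged to genes that rose steeply from 10 to 12 hpf and then changed little or fell. crabp2 (ENSDARG00000073978), a retinoic acid binding protein gene, averaged 0.138, 2.53, 33.1, 56.0 and 54.7 TPM at the 5 stages, a difference of -3.31 ± 0.11 between the intervals (SE, limma adjusted p = 1.2e-09). abcb11a, a transporter gene of the ABC family, averaged 1.24, 6.45, 49.2, 94.1 and 91.5 TPM, and mat1a, a methionine adenosyltransferase gene, 0.325, 1.46, 29.0, 88.4 and 97.4 TPM. pax8 averaged 0.300, 9.16, 31.6, 33.4 and 14.3 TPM, so that its rise before 12 hpf was followed by a fall after 14 hpf, a difference of -2.90 ± 0.11 (SE, limma adjusted p = 2.2e-09). irx3 (ENSDARG00000031138), an Iroquois gene of the neural tube, averaged 1.38, 1.52, 23.2, 42.6 and 40.6 TPM, bmp3, a Bmp-family ligand gene, 0.220, 2.25, 24.1, 41.0 and 32.9 TPM and alcam, an adhesion molecule gene, 0.675, 3.90, 35.9, 63.9 and 56.6 TPM.

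Whether the stage change differed between MPNP and PNP was tested with 2 libraries per group. In limma 1 gene of 15022 passed the test of the stage-by-cross interaction (0.00666%), and 1114 (7.42%) had an unadjusted p below 0.05. That gene, ENSDARG00000099573, which has no symbol, was at 4.85, 5.74, 0 and 0 TPM at 16 hpf, against 0, 0, 5.02 and 8.08 TPM at 14 hpf. It was listed at 0 in both PNP libraries of 16 hpf and both MPNP libraries of 14 hpf, so the crosses exchanged places between stages (difference 5.54 ± 0.28, limma adjusted p = 0.0022), and the call was lost without the first MPNP library of 16 hpf (adjusted p = 0.064). The next smallest p did not pass. prdx1 (ENSDARG00000058734), a peroxiredoxin gene, was at 64.4, 61.5, 21.6 and 18.0 TPM at 16 hpf, against 20.9, 20.1, 13.7 and 14.2 TPM at 14 hpf, a change of 1.57 in MPNP and 0.47 in PNP (limma interaction adjusted p = 0.16). tra2a, a splicing regulator gene, was at 73.4, 70.9, 123 and 112 TPM at 16 hpf, against 205, 177, 181 and 144 TPM at 14 hpf, a change of -1.39 in MPNP and -0.46 in PNP (limma interaction adjusted p = 0.16). he1.2, the hatching enzyme gene above, changed by 2.04 in MPNP and 1.27 in PNP (limma interaction adjusted p = 0.22). inpp4b, a phosphoinositide phosphatase gene, was at 20.2, 13.5, 25.4 and 15.0 TPM at 16 hpf, against 35.9, 23.0, 20.2 and 11.7 TPM at 14 hpf (limma interaction adjusted p = 0.16). sox4 (ENSDARG00000004588), of neural and other progenitors, changed by 0.44 in MPNP and -0.27 in PNP (limma interaction adjusted p = 0.2). The clone-named zgc:174890 changed by -0.69 in MPNP and 0.77 in PNP (limma interaction adjusted p = 0.2). A gene under the small nucleolar RNA symbol u3 (ENSDARG00000109750) was at 0, 0, 7.23 and 4.31 TPM at 16 hpf, against 0, 0, 0 and 0 TPM at 14 hpf (limma interaction adjusted p = 0.16).

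**Figure D5:**
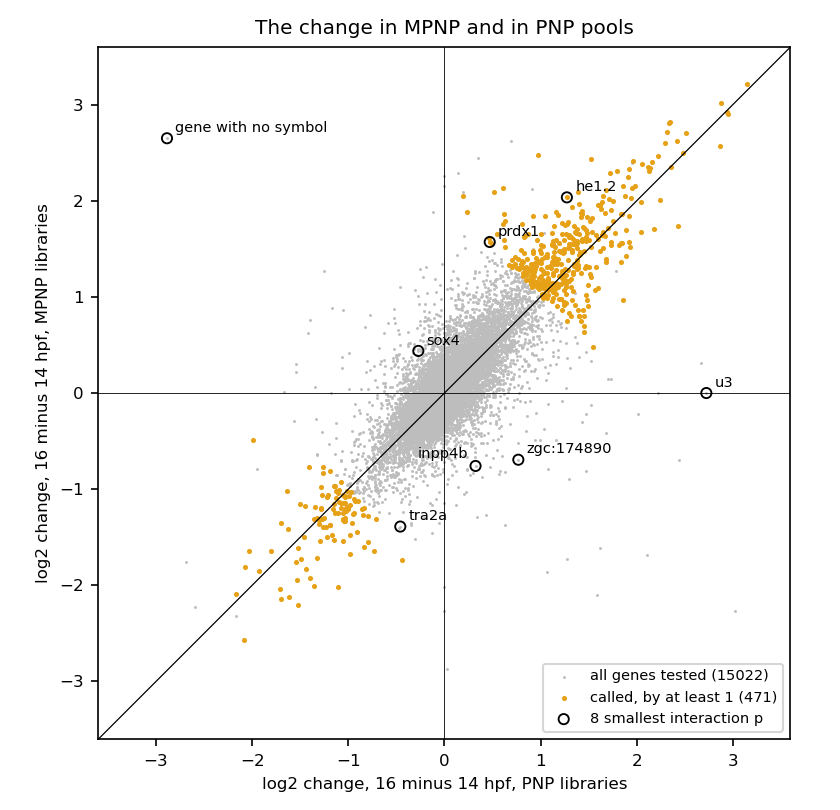
Log2 change, 16 minus 14 hpf, in the MPNP libraries against that in the PNP libraries for 15022 genes, with genes called by at least 1 in yellow and the 8 genes of smallest interaction p circled. The diagonal marks equal change, and ENSDARG00000099573 (the circled gene with no symbol) lies far from it.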

How the data were processed

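Poly(A) RNA (about 500 ng) from pools of about 50 zebrafish embryos was sequenced as paired reads of 150 bases, per the labels' protocols. The authors deposited 1 table of TPM per gene (transcripts scaled by gene length and to a fixed library total), for 20 libraries, and 4 further columns were not used here. STAR 2.7.3a, HTSeq 0.12.3, RSEM 1.3.3, DESeq2 1.42.1, R 4.3.3 and build GRCz11 are named, per the submitters' processing notes, and their roles are not given in the sources used here. The labels do not say that replicates came from separate crosses or days, so p-values measure the spread between these libraries, which may be technical.

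Symbols were found for 28988 of 32057 gene IDs. Fits used limma 3.58.1 in R 4.3.3 on log2(TPM + 1) with an intensity trend, over genes with a mean of at least 1 TPM, with Benjamini-Hochberg adjustment at 0.05. The 8 libraries of 14 and 16 hpf were fitted with stage, cross and replicate number (4 residual degrees of freedom), a second fit added the stage-by-cross interaction, and a fit of all 20 libraries gave the earlier contrasts. The code was tested on simulated data. Replicate numbers were taken as pairing the libraries because same-numbered libraries deviated together in all 6 pairs of groups, with a lowest correlation of 0.494.

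The 34 gene lists held 1139 entries, of which 1082 matched a gene, 231 of them after dropping a paralog letter and 13 through a synonym. The comparison and the lists were chosen with earlier results of these data known. Genes were named by rule: the 15 largest rises and falls, up to 6 called list members of smallest p, the 10 genes of smallest p in each direction, the 8 of smallest p in the other contrasts, the switched genes of highest level, and the mutated and title genes. The alternatives tried were a pseudocount of 0.1, no filter or 5 TPM, median-ratio and quantile scaling, other blocks, no trend, the 20-library fit, each cross or number alone, and each library left out. Promoter and protein sequences were not used here. Some genes named by the rule are not reported here.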

Additional observations from a re-analysis of the deposited data

Results flagged for a closer look

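The stage-by-cross interaction singled out 1 gene, ENSDARG00000099573, for which the test of the difference itself passed, with the MPNP change 5.54 above the PNP change on the log2 scale. It is listed at 0 in 4 of the 8 libraries, and its 2 nonzero groups are MPNP at 16 hpf and PNP at 14 hpf.

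The difference between the change of 14 to 16 hpf and that of 10 to 12 hpf passed the limma test for 5301 genes. The 8 of smallest p all had a lower change in the later interval. This difference was -3.51 on the log2 scale for mat1a, -3.31 for crabp2, -3.30 for irx3, -3.28 for bmp3, -3.08 for alcam, -2.90 for pax8, -2.81 for abcb11a and -1.73 for six4b. six4b, the early myogenic homeobox gene, averaged 5.80, 15.5, 38.1, 33.0 and 23.2 TPM at 8, 10, 12, 14 and 16 hpf.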

How the results depend on the processing

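The count of genes changed between 14 and 16 hpf (5798, 2999 higher and 2799 lower) was within 1.5 times of its value under the other pseudocount, filters, scalings and fits run, apart from those given here. Without the replicate block 2256 genes were called (1474 higher and 782 lower), all among the 5798. With the MPNP libraries only 3827 were called, with 1823 lower, and with the PNP libraries only 1726 (991 higher and 735 lower). With the libraries numbered 1 only 2796 were called (1749 and 1047), and with those numbered 2 only 1941 (1039 and 902). Within that factor of 1.5, the direction with more genes depended on the setting. Falls were more numerous after median-ratio scaling (2585 higher and 3454 lower) and quantile normalization (2619 and 2856). They were also with a minimum mean of 5 TPM (2018 and 2566) and in the 20-library fit (2368 and 2874). Rises were with the other pseudocount (3009 and 2787), without a filter (3218 and 2515) and without the trend (2859 and 2412). Leaving out each library in turn gave 4247 to 5227 calls, 2222 to 2810 higher and 1960 to 2619 lower. The interaction count of 1 was 0 with a minimum mean of 5 TPM, higher 0, and 0 to 3 with a library left out, 0 to 1 higher and 0 to 2 lower. The 5301 genes that differed between the intervals were 2710 without the replicate block (972 higher and 1738 lower), and the 1903 higher ones were 1258 with a minimum mean of 5 TPM. Leaving out each library in turn gave 4626 to 5012, 1655 to 1833 higher and 2881 to 3252 lower. For the fits on fewer libraries and the stricter filter, fewer samples or genes enter by construction. For the rest the cause was not tested.

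Of the named genes, 2 that were not called had another sign under some settings. fbxw7 changed by -0.03, against 0.0011 after quantile normalization, 0.0634 with PNP libraries only, 0.0594 with libraries numbered 1 only, and -0.0691 to 0.0591 with a library left out. pmaip1 changed by 0.02, against -0.0113 after median-ratio scaling, -0.055 after quantile normalization, -0.0448 with libraries numbered 2 only, and -0.0665 to 0.102 with a library left out. The calls of 45 named genes were lost without the replicate block, and their adjusted p are given beside the gene or as a range over a group of them. TPM holds no depth, so the counting error of genes near 1 TPM is unknown, and values of close paralogs depend on how shared reads were assigned.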

Other observations

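Some lists differed in the size of their median change between the crosses, without a test over the list. The median of the 43 measured G2/M genes was -0.21 in MPNP and -0.04 in PNP, and that of the 48 G1/S genes was -0.21 in MPNP and -0.07 in PNP. Ribosome biogenesis genes had a median of -0.34 in MPNP and -0.17 in PNP. Cilia genes had a median of 0.72 in MPNP and 0.44 in PNP, and p53 targets 0.26 in MPNP and 0.06 in PNP. The SD of the medians of the 4 pairs of libraries was 0.22 for cilia genes and 0.18 for p53 targets. It was 0.0996 for G2/M, 0.0945 for G1/S and 0.0938 for ribosome biogenesis genes. This SD is taken over the pairs of both crosses, so it includes the difference between them. These lists are a selection of the 34. The yolk syncytial layer list had 0.51 in MPNP and 0.29 in PNP. Other lists changed more in PNP, with 0.72 in MPNP and 1.20 in PNP for slow muscle and -0.11 and -0.34 for endoderm. The slow muscle list had only 7 measured genes, and the SD of its pair medians was 0.33. Its median was 0.69 in the libraries numbered 1 and 1.23 in those numbered 2, so replicate numbers differed as well as crosses. An unadjusted interaction p below 0.05 was found for 12 of 43 G2/M genes, 13 of 48 G1/S genes, 14 of 44 ribosome biogenesis genes, 9 of 33 p53 targets and 7 of 34 cilia genes, beside 7.42% of all genes, and none of them passed adjustment. It was found for 4 of 23 yolk syncytial layer genes, 3 of 16 endoderm genes and 0 of 7 slow muscle genes. The lists are shown for their medians in these same 8 libraries, so these counts are a description and no further support. By expectation the MPNP pools hold embryos with and without mdm2, which cannot be told apart in a pool.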
